A study of Mus musculus with 4 samples.

Results

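The genes described here are 10 Dusp genes that encode MAP kinase phosphatases: Dusp1, Dusp2, Dusp4, Dusp5, Dusp6, Dusp7, Dusp8, Dusp10, Dusp14 and Dusp16. They were found by symbol. Of 45037 probe sets on the array that are not controls, 16 carry 1 of these symbols and no other, and together they cover all 10 genes. RNA came from cultures of mouse palatal mesenchyme, the connective tissue inside the growing palatal shelves, grown as primary cells from outbred wild-type embryos at embryonic day 14. All groups shared this source, and each group was a single culture on a single array: untreated, TGF-beta2 for 120 minutes, SB431542 for 60 minutes followed by TGF-beta2 for 120 minutes, and 5Z-7-Oxozeaenol (oxozeaenol below) for 60 minutes followed by TGF-beta2 for 120 minutes. SB431542 inhibits the kinase of the TGF-beta type I receptor, and oxozeaenol inhibits Tak1, a kinase that activates kinases upstream of JNK and p38. No group received an inhibitor alone, so an inhibitor's own action and its action on the response to TGF-beta2 cannot be told apart. Resorcylic acid lactones such as oxozeaenol can also bind other kinases, and kinase activity was not measured here.

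MAP kinases are switched on by phosphorylation of a threonine and a tyrosine in their activation loop, and dual-specificity phosphatases switch them off by removing both phosphates. Many of the phosphatase genes are themselves transcribed in response to the kinases they act on, which makes them feedback brakes. The members fall into an inducible nuclear group (Dusp1, Dusp2, Dusp4 and Dusp5), a cytoplasmic group that prefers ERK (Dusp6 and Dusp7) and a group that prefers JNK and p38 (Dusp8, Dusp10 and Dusp16). Dusp14 is a small atypical phosphatase that lacks the amino-terminal kinase-binding domain of the others. Dusp6 is a known readout of FGF and ERK signalling in embryonic tissues.

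The sequence just before the transcription start is shown for 3 members that were lower with oxozeaenol (Dusp1, Dusp5 and Dusp6) and for 1 that lay close to its level with TGF-beta2 alone (Dusp10). They are RefSeq sequences of build GRCm38.p6, 250 bases up to the base before the start, 5′ to 3′ on the gene's strand. Capitals mark the full cAMP response element TGACGTCA and its shorter site TGACG, the CArG box bound by serum response factor, and the Smad element CAGACA, on either strand, and the stretches shown for Dusp6 and Dusp10 hold none of these. The Dusp1 sequence lies at chr17:26508473-26508722 on the minus strand, Dusp5 at chr19:53528895-53529144 on the plus strand, Dusp6 at chr10:99262981-99263230 on the plus strand and Dusp10 at chr1:184034131-184034380 on the plus strand.
Dusp1: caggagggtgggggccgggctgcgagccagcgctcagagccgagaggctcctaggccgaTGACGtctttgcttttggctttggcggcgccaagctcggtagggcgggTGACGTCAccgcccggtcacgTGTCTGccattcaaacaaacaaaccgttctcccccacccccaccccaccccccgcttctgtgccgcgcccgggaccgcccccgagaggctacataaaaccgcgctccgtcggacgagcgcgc
Dusp5: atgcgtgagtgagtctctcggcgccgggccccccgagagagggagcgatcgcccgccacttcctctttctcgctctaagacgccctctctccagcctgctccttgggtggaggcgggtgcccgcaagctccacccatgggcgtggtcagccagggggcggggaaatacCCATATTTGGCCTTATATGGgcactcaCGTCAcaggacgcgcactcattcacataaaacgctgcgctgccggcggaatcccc
Dusp6: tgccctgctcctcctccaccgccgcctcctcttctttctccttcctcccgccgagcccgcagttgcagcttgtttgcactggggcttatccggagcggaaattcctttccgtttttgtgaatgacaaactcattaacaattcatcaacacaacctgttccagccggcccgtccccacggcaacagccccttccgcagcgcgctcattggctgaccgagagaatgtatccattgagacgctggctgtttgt
Dusp10: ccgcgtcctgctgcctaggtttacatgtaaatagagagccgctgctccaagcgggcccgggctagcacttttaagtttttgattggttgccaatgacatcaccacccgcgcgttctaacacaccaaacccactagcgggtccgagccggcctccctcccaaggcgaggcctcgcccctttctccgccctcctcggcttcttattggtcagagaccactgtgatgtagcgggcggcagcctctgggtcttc

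Windows from 250 bases before to 50 after the start were listed for 9 of the 10 members, all except Dusp4. The starts listed for Dusp7, Dusp8, Dusp14 and Dusp16 lie inside the gene's annotated span. The full cAMP response element was in the windows of Dusp1, 143 bases before the start, and of Dusp8, 107 and 63 bases before it, against 1.79% of 32851 windows. The Dusp5 window held 2 CArG boxes side by side, beginning 82 and 72 bases before the start, and 1.63% of all windows held any. The shorter site TGACG, which also lies within each full element, was in 5 of the 9 windows and in 20.8% of all. The ETS core GGAA was in 7 of 9 and in 96% of all windows, with 6 matches in the Dusp6 window, where it was the 1 searched motif found. The AP-1 motif TGANTCA, the ETS motif CCGGAAG and the Smad palindrome were in 0 of the 9 windows and in 7.81%, 8.86% and 0.213% of all windows. CAGACA was in the windows of Dusp1 and Dusp2 (21% of all), and the Sp/Klf motif GGGGCGGGG in those of Dusp2, Dusp5, Dusp10 and Dusp16 (11.4%). These are matches of letters and do not show binding. The members with a full element, Dusp1 and Dusp8, had different patterns across the arrays, as the values below show.

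Values are signals on a linear scale without a unit, and the deposited arrays share a common level, with a trimmed mean of 500.0 on each (2% of probe sets left out at either end). Array medians lay between 66.3 and 72.7, and array pairs correlated at 0.972 to 0.987 (Pearson's r) across probe sets past the filter, which are not independent replicates. With 1 array per group there is no replicate error, so no test could be run and no difference below has a replicate check. Differences are given as log2 or fold on the scale log2(signal + 21.7), which understates the difference of dim genes, and 2-fold is a rule of size. All 10 members had a probe set past the filter, a mean over the arrays equal to a signal of about 66.1, as had 11744 genes in all. Of the 16 probe sets 13 passed, and the brightest stands for its gene. Dusp1, Dusp2, Dusp4, Dusp5, Dusp6 and Dusp14 have 1 probe set each, so their readings have no second probe set on the same array. Of 16 markers of palatal mesenchyme fixed as a list, 14 passed the filter, and Osr2 and Tbx22 lay under it on all 4 arrays. All 12 macrophage and blood markers also passed, and 7 of 8 endothelial markers did not pass.

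**Figure D1:**
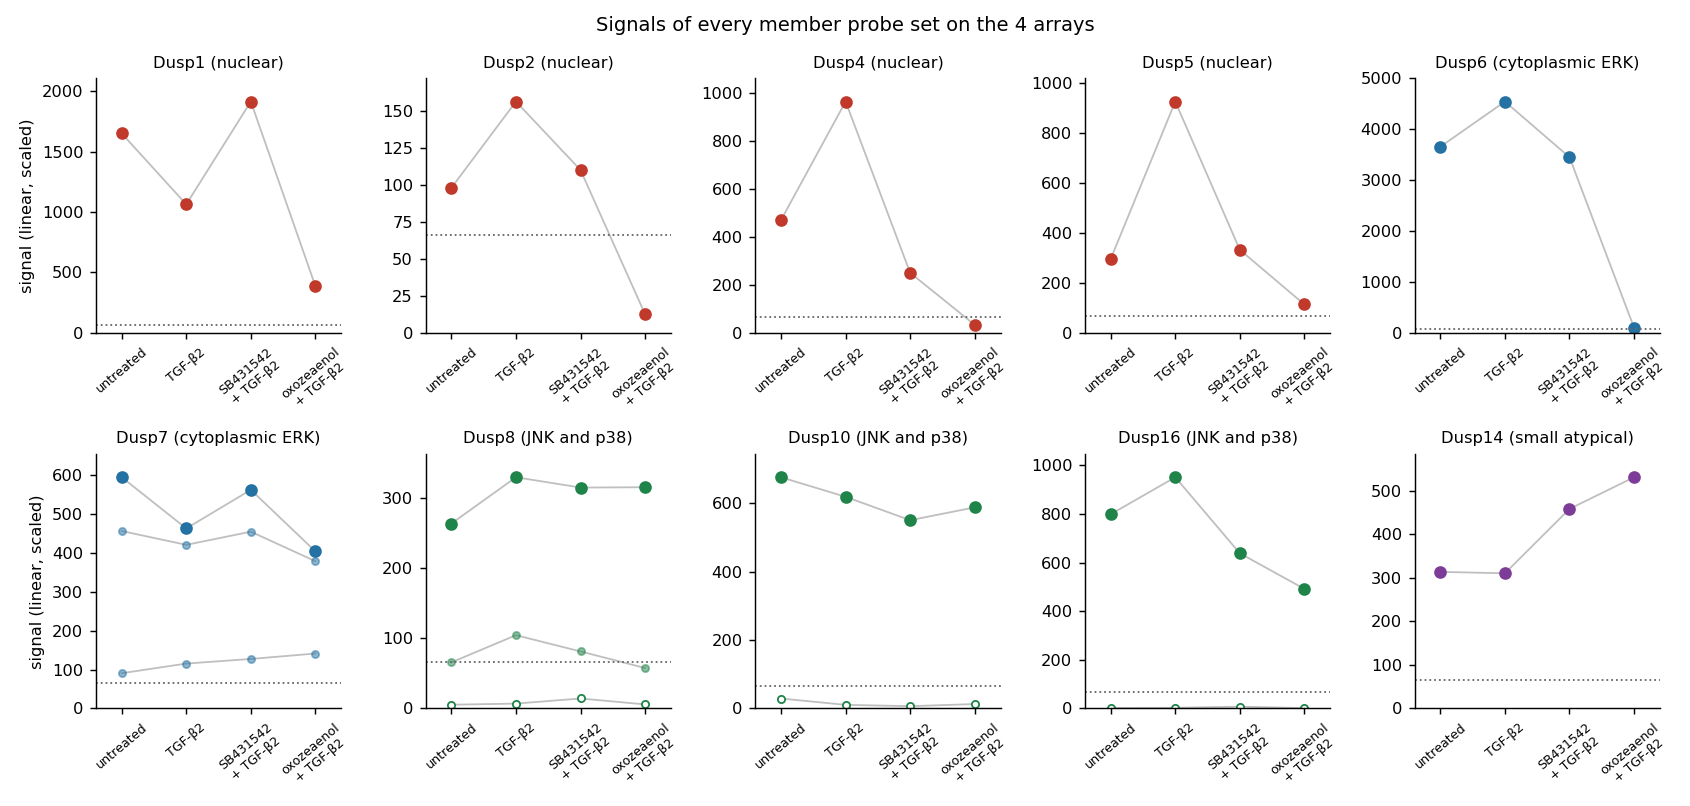
Signal (linear, scaled, no unit) of each probe set of the 10 members on the 4 arrays, 1 array per group, each panel on its own axis from 0. Large filled points are the probe set that stands for the gene, small filled points other probe sets past the filter, open points probe sets under it, and the dotted line is the filter level of 66.1. Dusp1, Dusp2, Dusp4, Dusp5 and Dusp6 are lowest on the oxozeaenol array by at least 2-fold. The large points of Dusp7 and Dusp16 are also lowest there, within 2-fold of the other arrays. Dusp4 and Dusp5 are highest with TGF-beta2 alone, at least 2-fold over untreated. The large points of Dusp2, Dusp6, Dusp8 and Dusp16 are also highest there, within 2-fold of untreated.

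Among the inducible nuclear phosphatases, Dusp5, which acts on ERK, had a signal of 296 in the untreated culture, 927 after TGF-beta2, 333 after SB431542 and 113 after oxozeaenol, the inhibitor cultures having TGF-beta2 as well. The TGF-beta2 array stands well above the others, and the oxozeaenol array is the lowest. Dusp5 was 2.99-fold higher with TGF-beta2 than untreated (log2 1.58), which placed it 19th from the highest of 11744 genes. With SB431542 it was 2.68-fold lower than with TGF-beta2 alone and differed from untreated by 0.16 on the log2 scale. With oxozeaenol it was 7.02-fold lower than with TGF-beta2 alone and 2.35-fold lower than untreated. The last of these differences was -0.998 on the log2 scale with the pseudocount at the median, just short of 2-fold.

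Dusp4, which acts on ERK, JNK and p38, read 470.3 untreated, 964 with TGF-beta2, 250.03 with SB431542 and 32.9 with oxozeaenol. It was 2.004-fold higher with TGF-beta2 than untreated, at the border of the rule, with a log2 difference of 1.003 that became 0.94 with the pseudocount at the median. With SB431542 it was 3.63-fold lower than with TGF-beta2 alone. Its level there also lay under the untreated level, by 0.86 on the log2 scale. With oxozeaenol it was 18.1-fold lower than with TGF-beta2 alone and 9.02-fold lower than untreated. The oxozeaenol reading is under the filter level, so the size depends on the pseudocount: the plain ratio of signals was 29.3 against TGF-beta2 alone.

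Dusp1, an immediate early gene whose product acts mainly on p38 and JNK, read 1649.9 untreated, 1063 with TGF-beta2, 1914 with SB431542 and 387 with oxozeaenol. Its order across the arrays differs from that of Dusp4 and Dusp5, since the TGF-beta2 array is lower than the untreated and the SB431542 arrays. The log2 difference was -0.62 with TGF-beta2 over untreated and 0.84 with SB431542 over TGF-beta2 alone, both within 2-fold. With oxozeaenol Dusp1 was 2.66-fold lower than with TGF-beta2 alone, 4.09-fold lower than untreated and 4.74-fold lower than with SB431542.

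Dusp2, a nuclear phosphatase known mainly from blood cells, was dim on every array, at 97.9 untreated, 156 with TGF-beta2, 110.0 with SB431542 and 12.5 with oxozeaenol. The oxozeaenol reading lies under the filter level and under the pseudocount. The gene passed the filter only through its TGF-beta2 signal, so the filter itself favoured its fall from that array. Dusp2 was 1.49-fold higher with TGF-beta2 than untreated and 1.35-fold lower after SB431542 than after TGF-beta2 alone. With oxozeaenol it was 5.20-fold lower than with TGF-beta2 alone (plain ratio 12.4) and 3.49-fold lower than untreated. Over the settings with a pseudocount that kept Dusp2, its log2 difference from TGF-beta2 alone ran from -3.14 to -1.46.

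In the cytoplasmic ERK group, Dusp6 read 3658 untreated, 4547 with TGF-beta2, 3451 with SB431542 and 99.3 with oxozeaenol. The first 3 arrays lie close together and the oxozeaenol array stands far below them. Dusp6 was 1.24-fold higher with TGF-beta2 than untreated and 1.32-fold lower after SB431542 than after TGF-beta2 alone, both within 2-fold. With oxozeaenol it was 37.8-fold lower than with TGF-beta2 alone, 30.4-fold lower than untreated and 28.7-fold lower than with SB431542. Of 11744 genes it ranked lowest in the comparisons with untreated and with SB431542, and 2nd lowest in the comparison with TGF-beta2 alone. Over the settings with a pseudocount its log2 difference from TGF-beta2 alone ran from -5.44 to -4.77, and the plain ratio of signals was 45.8.

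Dusp7, the other ERK phosphatase of the cytoplasm, had no such drop. Its brightest probe set read 594 untreated, 462 with TGF-beta2, 561 with SB431542 and 403 with oxozeaenol. A second probe set, whose name marks probes shared with other sequences, ran in the same order from 456 and 420.1 to 454 and 378. The last, dimmer one read 90.5, 115, 127 and 141 on the same arrays. The log2 differences of oxozeaenol over TGF-beta2 alone were -0.19, -0.14 and 0.25, all within 2-fold, and the 3 probe sets do not share a direction there, while with SB431542 over TGF-beta2 alone all 3 were slightly higher (0.27, 0.11 and 0.12).

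The phosphatases that prefer JNK and p38 stayed within 2-fold in all 6 comparisons. Dusp8 read 264 untreated, 330.0 with TGF-beta2, 315 with SB431542 and 316 with oxozeaenol, and its second probe set past the filter read 65.7, 105, 81.4 and 57.7 in the same order, a log2 difference of -0.67 with oxozeaenol over TGF-beta2 alone. Dusp10 read 676, 619, 551 and 588 on the same arrays. The log2 differences of the probe sets that stand for Dusp8 and Dusp10 lay between -0.29 and 0.30 in all 6 comparisons. Dusp16 read 799 untreated, 951 with TGF-beta2, 638 with SB431542 and 492 with oxozeaenol, so that both inhibitor arrays lay under the untreated one. Its log2 difference from TGF-beta2 alone was -0.56 with SB431542 and -0.92 with oxozeaenol, the latter close to the 2-fold rule, and it ran from -0.995 to -0.86 over the other processing settings. The remaining probe sets, 1 each for Dusp8, Dusp10 and Dusp16, lay under the filter with signals of 1.34 to 29.0.

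Dusp14 had the opposite order on the inhibitor arrays. It read 314 untreated, 311 with TGF-beta2, 458 with SB431542 and 531 with oxozeaenol. The untreated and TGF-beta2 arrays were alike, with a log2 difference of -0.01 whose sign turned with both other scalings of the arrays. It was 1.45-fold higher with SB431542 and 1.66-fold higher with oxozeaenol than with TGF-beta2 alone, both within 2-fold.

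**Figure D2:**
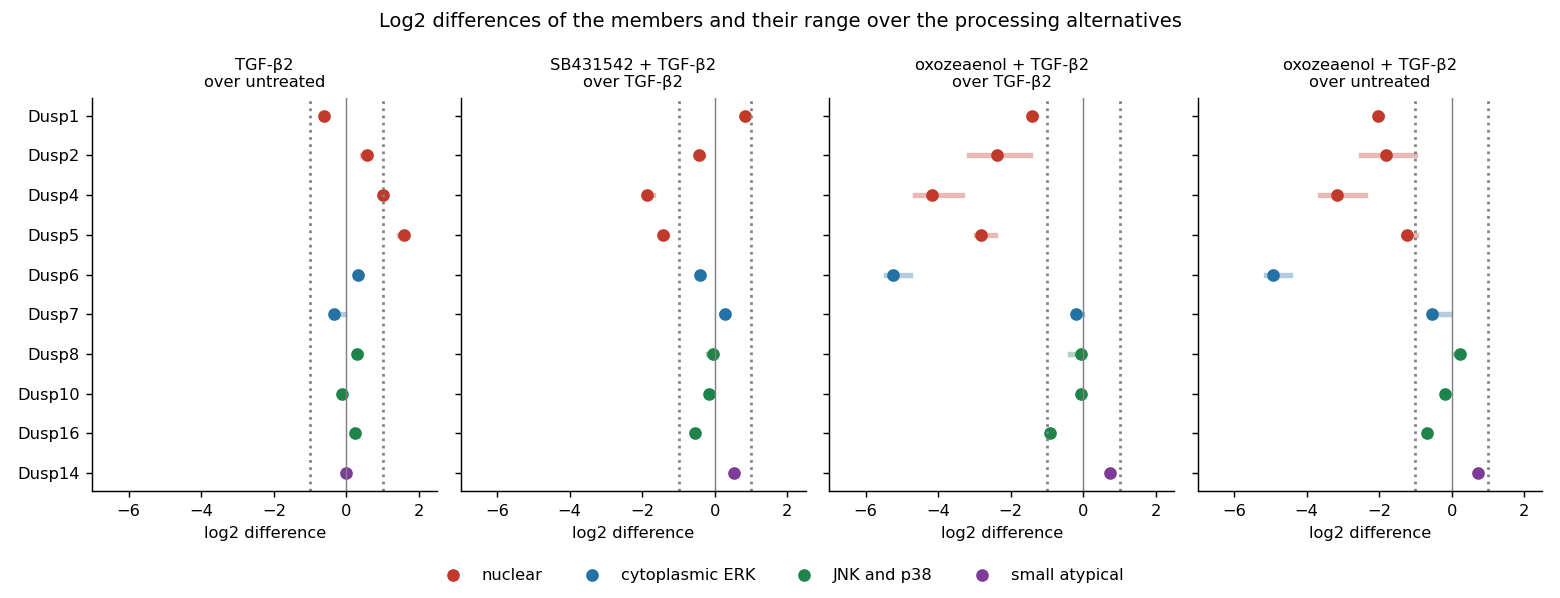
Log2 differences of the probe set that stands for each member, in 4 comparisons between single arrays (points), with the range over the processing settings that use a pseudocount as pale bars. Colours give the group of the phosphatase and dotted lines mark 2-fold. Dusp6 lies furthest left in both oxozeaenol panels, and the bars of Dusp2 and Dusp4 are the longest there.

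Counted by the 2-fold rule, 2 of the 10 members (Dusp4 and Dusp5) were higher with TGF-beta2 than untreated, where 0.673% of all genes were, and 0 were lower, where 0.366% of all genes were. The median log2 difference of the members was 0.27, against -0.03 over all genes. With SB431542 over TGF-beta2 alone, the same 2 members were lower (1.18% of all genes) and 0 were higher (0.613%), with a median of -0.28 against 0.03. With oxozeaenol over TGF-beta2 alone, 5 members were lower (2.17% of all genes), namely Dusp1, Dusp2, Dusp4, Dusp5 and Dusp6, and 0 were higher (1.82%). The median there was -1.17 against 0.05. Of the 5, Dusp2 passed the filter only through its TGF-beta2 signal, so the filter favoured its place in this count. These 3 comparisons share the TGF-beta2 array, so a reading on it enters all of them, and the members were chosen with earlier results of these data known.

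Against the untreated array, 0 members were at least 2-fold higher or lower with SB431542 and TGF-beta2, where 0.468% of all genes were higher and 0.383% lower. The member median was 0.03 and the range -0.86 (Dusp4) to 0.52 (Dusp14). With oxozeaenol and TGF-beta2, the same 5 members were at least 2-fold lower than untreated (1.51% of all genes) and 0 were higher (1.49%), with a median of -0.96. Set against SB431542, both with TGF-beta2, oxozeaenol left the same 5 members at least 2-fold lower (1.3% of all genes), and 0 were higher (1.51%). For the members at least 2-fold higher with TGF-beta2, the level can be placed between untreated (0) and TGF-beta2 alone (1) on the log2 scale. With SB431542, Dusp5 stood at 0.099 and Dusp4 at -0.854. With oxozeaenol both stood under the untreated level, Dusp5 at -0.782, and for Dusp4, whose reading there is under the filter level, the position depends on the pseudocount and is not given.

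By group, 4 of 4 nuclear members and 1 of 2 cytoplasmic ERK members were at least 2-fold lower with oxozeaenol than with TGF-beta2 alone. The 4 include Dusp2, whose fall the filter favoured. Of the members that prefer JNK and p38, 0 of 3 were, and the lowest of these 3 was Dusp16. Over all genes the share was 2.17%. The groups do not divide the members by kinase, since the products of Dusp1 and Dusp4 in the nuclear group also act on JNK and p38.

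**Figure D3:**
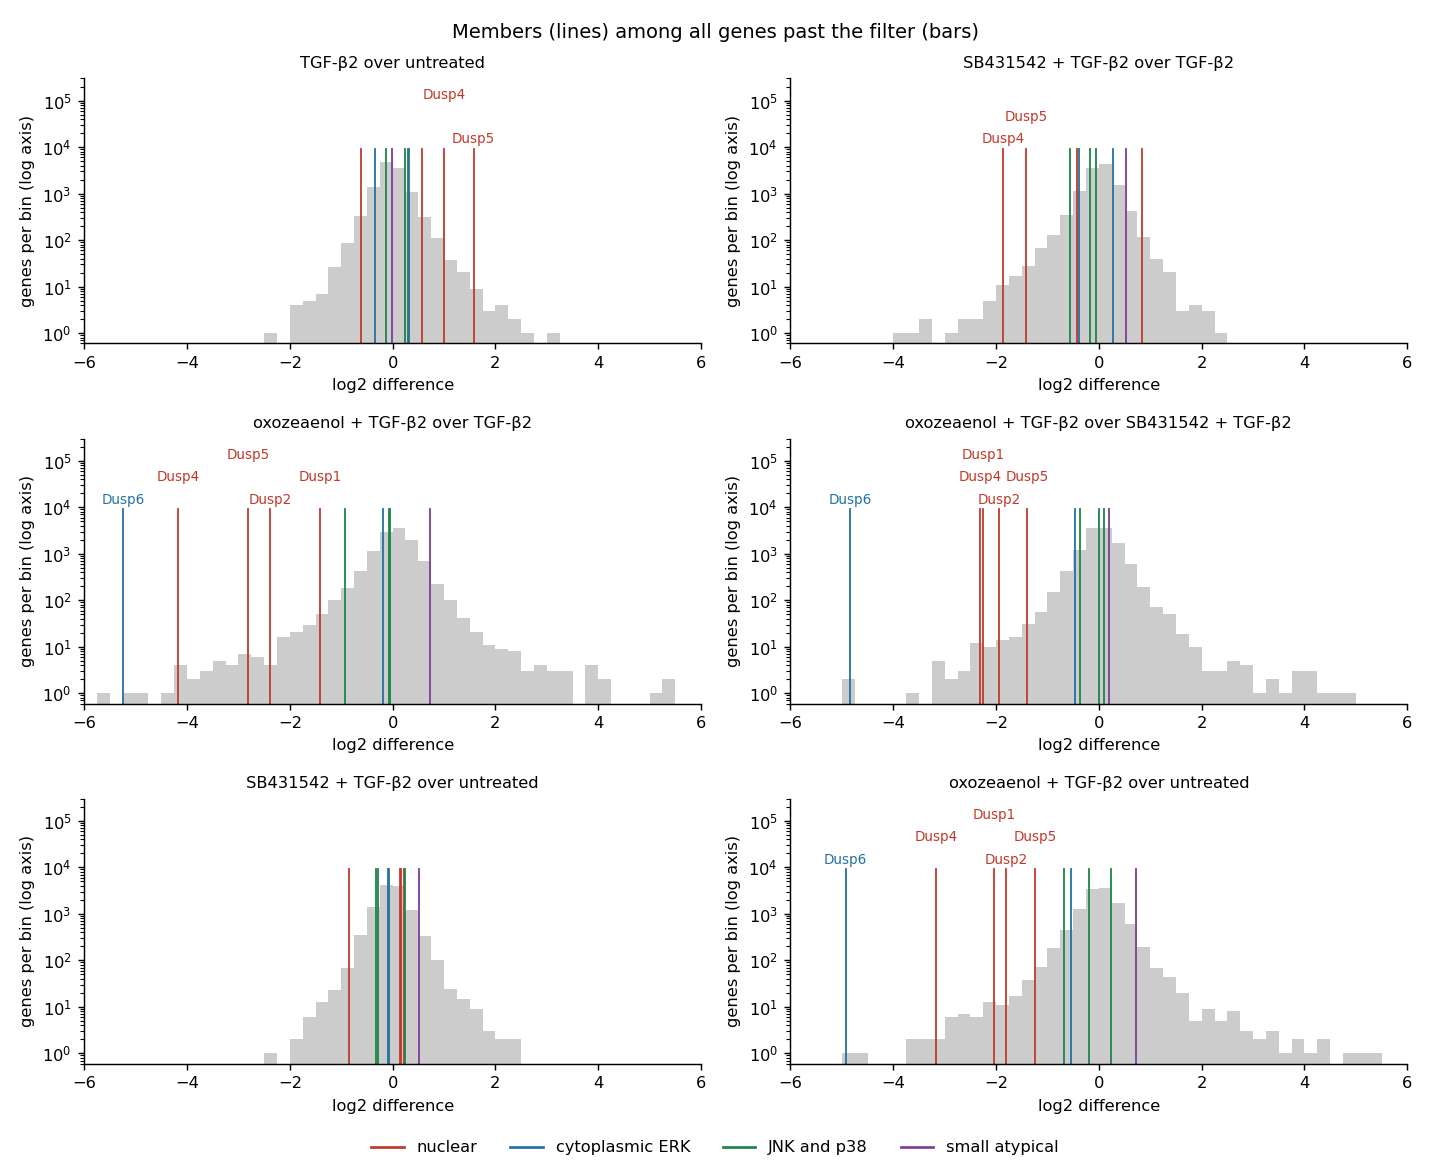
The 10 members (coloured lines, by group) among 11744 genes past the filter (grey bars, genes per bin of log2 difference, log axis) in the 6 comparisons between arrays. Members at least 2-fold apart are named: Dusp4 and Dusp5 in the upper panels, and Dusp1, Dusp2, Dusp4, Dusp5 and Dusp6 in the panels with oxozeaenol.

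Levels of markers of other cells were read on the same arrays. Summed over the 12 macrophage and blood markers, the signal was 72782 untreated, 69189.7 with TGF-beta2, 70502 with SB431542 and 61511 with oxozeaenol, and each marker was within 2-fold of its level with TGF-beta2 alone, with log2 differences of -0.73 (Cd14) to 0.00 (Lyz2) on the oxozeaenol array. Against untreated, Cd14 was lower by more than 2-fold there (-1.02). Summed over the 11 epithelial markers past the filter, the signal was 3248, 3233, 3340.03 and 13971.5 in the same order. Of the 11, 6 were at least 2-fold higher with oxozeaenol than with TGF-beta2 alone (1.82% of all genes). Krt5 (log2 difference 2.46), Krt14 (2.82), Krt6a (2.33) and Dsp (2.60) did not need their oxozeaenol signals to pass the filter. The rest of the 6, Krt13 and Krt19, passed the filter only through their oxozeaenol signals, so the filter itself favoured their rise. Krt13 read 28.0, 24.3, 55.8 and 2023 in the same order, and Krt19 read 81.0, 34.7, 73.3 and 209. The 14 markers of palatal mesenchyme summed to 80197, 82468, 88894.5 and 84542, but single markers differed. Osr1 (-1.39) and Pdgfra (-1.09) were lower with TGF-beta2 than untreated. Against TGF-beta2 alone, Osr1 (2.31), Pdgfra (1.16) and Shox2 (1.01) were higher and Mn1 (-1.08) lower with SB431542, and Osr1 (1.80) and Shox2 (1.24) were higher with oxozeaenol. Of 3 skeletal muscle markers past the filter, Des, the muscle filament gene, was lower with oxozeaenol than with TGF-beta2 alone (-1.51), SB431542 (-1.61) and untreated (-1.53). The others, Acta1 (-0.004, 0.01 and 0.44) and Myod1 (0.03, -0.34 and -0.49), were within 2-fold in the same comparisons. In bulk RNA, fewer cells of a type and less RNA per cell cannot be told apart. The part of these cells in the levels of the members was not tested. All 7 housekeeping genes past the filter differed by -0.14 to 0.20 on the log2 scale in the 6 comparisons.

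Other phosphatases on the same arrays differed less. Of 17 other dual-specificity and related phosphatases past the filter, 0 differed by 2-fold with TGF-beta2 over untreated or with SB431542 over TGF-beta2 alone. With oxozeaenol over TGF-beta2 alone 1 was lower, Ssh1, a slingshot phosphatase that acts on cofilin, which read 2407 untreated, 3589.5 with TGF-beta2, 1869 with SB431542 and 1704 with oxozeaenol. Dusp9, the third ERK phosphatase of the cytoplasm, read 78.1, 86.5, 86.7 and 79.9 on the same arrays. Of 7 further phosphatases known to act on MAP kinases, such as Ppm1a and the catalytic subunit gene Ppp2ca, 0 differed by 2-fold in any of the 6 comparisons. In each comparison at most 2.17% of all genes were lower and at most 1.82% higher. Counts of 0 or 1 in lists this small therefore do not set them apart from all genes.

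The kinases themselves also lay within 2-fold. This held for 8 MAP kinase genes, 6 MAP kinase kinase genes and 5 genes of the Tak1 complex in all 6 comparisons. Mapk14, which encodes a p38 kinase, read 1991 untreated, 1527 with TGF-beta2, 2245 with SB431542 and 1767 with oxozeaenol. Of 11 components between Ras and ERK, Gab1, an adaptor of growth factor receptors, was higher with oxozeaenol than with SB431542 by 1.001 on the log2 scale, at the border of the rule, and did not reach it with the pseudocount at the median, quantile normalization or median centring. The other 10 were within 2-fold in every comparison.

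Genes known as ERK targets and feedback inhibitors were fixed as another list. Of 24 past the filter, 4 were higher with TGF-beta2 than untreated (0.673% of all genes): Egr2 (2.72), Junb (1.34), Egr1 (1.22) and Hbegf (1.18), as log2 differences. Against TGF-beta2 alone, 5 were lower with SB431542 (1.18% of all genes) and 17 with oxozeaenol (2.17%), and 0 were higher with either (0.613% and 1.82%). Among the 17, Fosb passed the filter only through its TGF-beta2 signal, so the filter itself favoured its fall. The list median was -0.31 with SB431542 and -1.68 with oxozeaenol. The 6 lowest with oxozeaenol were the transcription factor genes Egr1 (-5.73), Egr2 (-4.76) and Egr3 (-3.29), Phlda1 (-4.03), the growth factor gene Hbegf (-4.03) and Errfi1 (-3.27), whose product restrains EGF receptor kinases. Against untreated, oxozeaenol left 14 of the 24 at least 2-fold lower (1.51% of all genes). SB431542 left 0 lower (0.383%) and 1 higher (0.468%), the ETS factor gene Etv5 (1.19). The Sprouty genes Spry1, Spry2 and Spry4, which restrain receptor signalling to ERK, were within 2-fold with oxozeaenol over TGF-beta2 alone, at -0.60, -0.99 and -0.48 on the log2 scale. Spry2 read 317 untreated, 315 with TGF-beta2, 363 with SB431542 and 147 with oxozeaenol, and on that array it was more than 2-fold under SB431542 (-1.19) and at the border of the rule against untreated (-1.003).

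Of 20 targets and effectors of JNK and p38 past the filter, 1 was higher with TGF-beta2 than untreated (0.673% of all genes), the cytokine gene Il6 (1.66). With oxozeaenol over TGF-beta2 alone, 4 were lower (2.17% of all genes) and 0 were higher (1.82%). The 4 were Il6 (-3.67), Tnf (-2.10), the prostaglandin synthase gene Ptgs2 (-1.16) and Jun (-1.10). Tnf would not have passed the filter without its TGF-beta2 signal, so the filter favoured its fall. With SB431542, Il6 (-2.27), Gadd45b (-1.25) and Ptgs2 (-1.24) were lower (1.18% of all genes). The list median was -0.23 with SB431542 and -0.14 with oxozeaenol, with differences to both sides. Within 2-fold of the level with TGF-beta2 alone were 17 of the 20 with SB431542 and 16 with oxozeaenol. The log2 differences ran from -2.27 to 0.97 with SB431542 and from -3.67 to 0.87 with oxozeaenol. Against untreated, oxozeaenol left 2 higher, Rps6ka5 (1.62) and Gadd45b (1.03), and 2 lower, Tnf (-2.03) and Il6 (-2.00). The shares of all genes were 1.49% and 1.51%. SB431542 left 1 higher than untreated, Gadd45a (1.04), and 0 lower. With oxozeaenol over SB431542, 1 was higher, Gadd45b (1.46), and 2 were lower, Tnf (-2.30) and Il6 (-1.40).

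**Figure D4:**
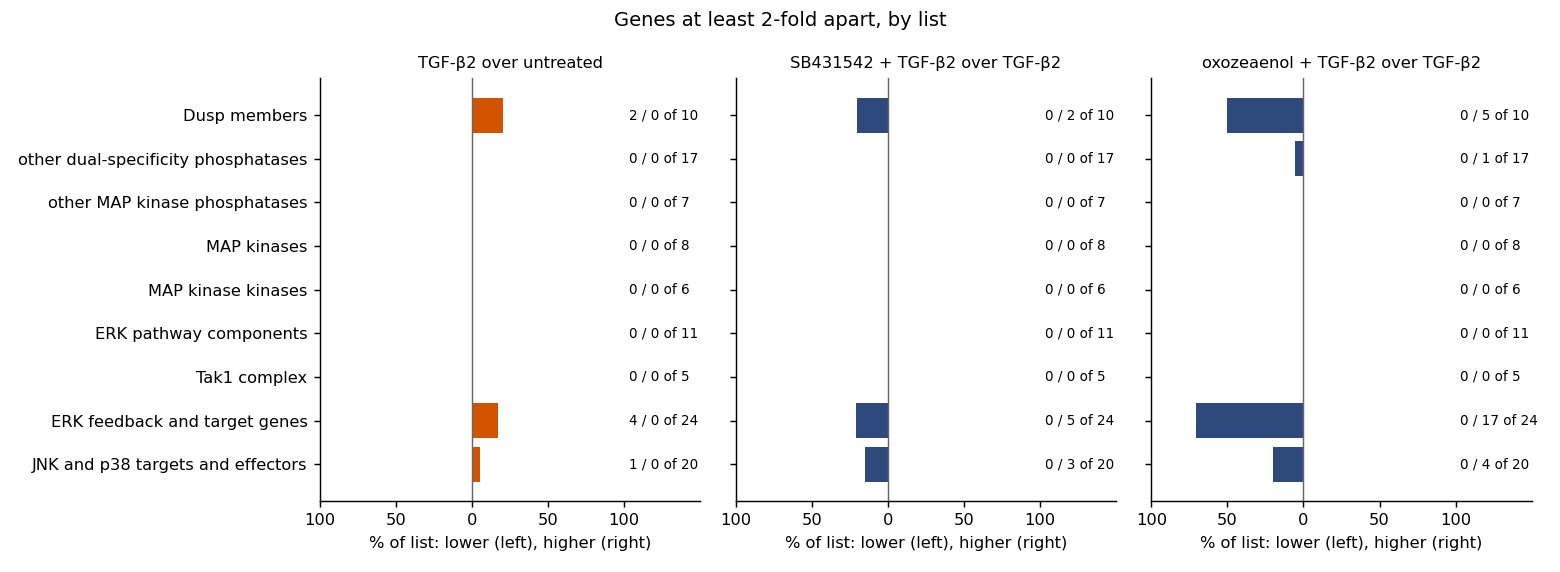
Share of each list (percent of its genes past the filter) at least 2-fold lower (blue, left) or higher (orange, right) in 3 comparisons between single arrays, with the counts of higher and lower genes printed at the right. With oxozeaenol over TGF-beta2 alone, 17 of 24 ERK feedback and target genes and 5 of 10 Dusp members were lower, against 0 of 8 MAP kinases. Over all genes 2.17% were lower, so 0 of 8 lies near that share. Fosb among the 17 and Dusp2 among the 5 passed the filter only through their TGF-beta2 signals.

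Genes outside the members were ranked by how close their 3 log2 differences from untreated lay to those of a member, as a Euclidean distance over 4 arrays, for the 5 members that span at least 2-fold. For Dusp1 the closest was Id1 (distance 0.19), an inhibitor of basic helix-loop-helix factors, which read 4944 untreated, 2905 with TGF-beta2, 5542 with SB431542 and 1295 with oxozeaenol. Like Dusp1, Id1 was lower with TGF-beta2 than on the untreated and SB431542 arrays and lowest with oxozeaenol. The repressor gene Bcl6b (0.34) and the pseudokinase gene Trib2 (0.38) followed. For Dusp2 the closest were Maff (0.37), a bZIP transcription factor gene, the adaptor gene Dok1 (0.38) and Socs3 (0.42), a feedback inhibitor of cytokine receptors. For Dusp4 they were Rgs1 (0.45), a regulator of G-protein signalling, Hbegf (0.56) and the homeobox gene Meox1 (0.68).

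For Dusp5 the closest genes were Prag1 (0.36), a pseudokinase gene, Eva1a (0.38) and Nfatc2 (0.61), a transcription factor gene. Prag1 read 356 untreated, 1141 with TGF-beta2, 326 with SB431542 and 166 with oxozeaenol. For Dusp6 the closest gene, Egr1, lay at 1.05 and the next, Rgs16 and Phlda1, at 1.54 and 1.57, so that no gene outside the members came as close to Dusp6 as the third gene did to each of the other 4. Egr1 read 4389 untreated, 10257 with TGF-beta2, 5195 with SB431542 and 171 with oxozeaenol, and differed from Dusp6 mainly on the TGF-beta2 array. Among the members, the closest pair was Dusp7 and Dusp10 (0.46), both within 2-fold on all arrays, and Dusp2 and Dusp5 were the closest pair among the 5 members that span 2-fold (1.16).

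**Figure D5:**
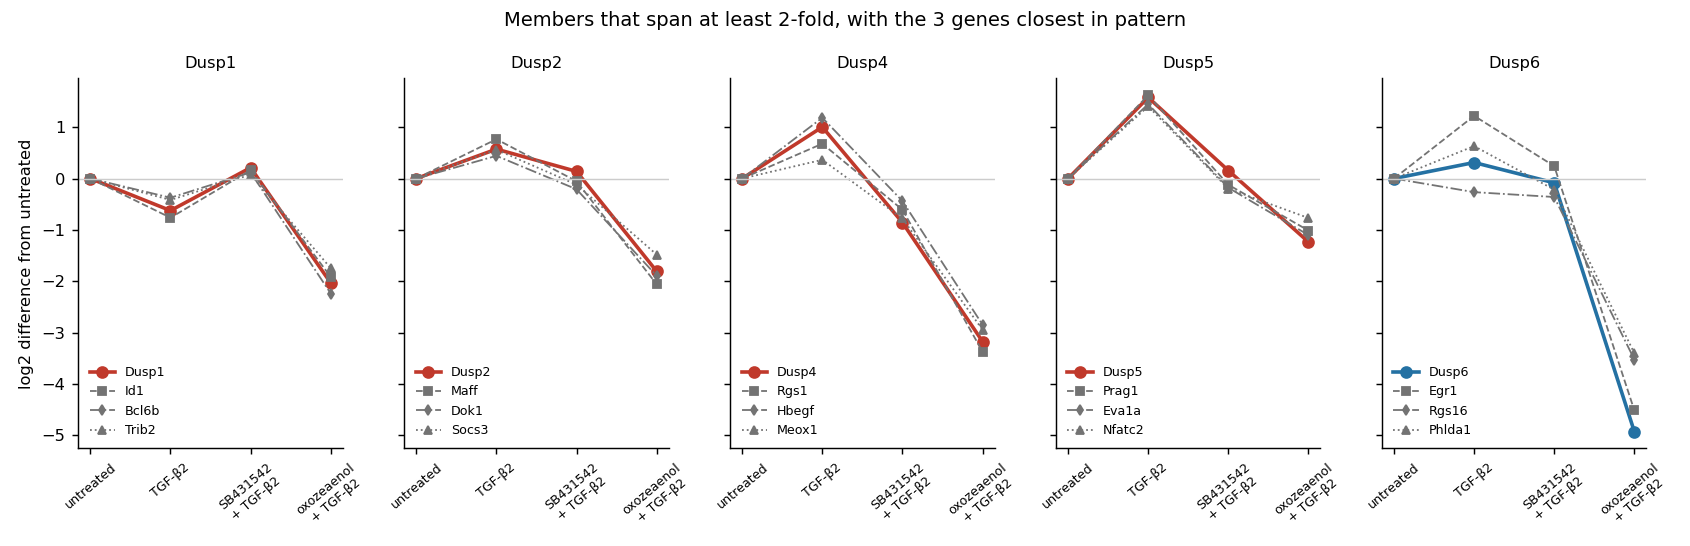
Log2 difference from the untreated array on each array for the 5 members that span at least 2-fold (coloured) and the 3 genes outside the members with the closest pattern (grey). Dusp1 and Id1 dip on the TGF-beta2 array and return with SB431542, and Dusp2, Dusp4 and Dusp5 peak on the TGF-beta2 array. Dusp6 lies between -0.08 and 0.31 until the oxozeaenol array, where it is at -4.93.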

How the data were processed

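RNA of 4 cultures was hybridised to 1 Affymetrix 3′ expression array each, from 500 ng of total RNA per the labels' protocols. The deposited values are intensities, 1 per probe set on a linear scale, which the authors brought to a common array level. GCOS is named in the submitters' processing notes without its version, algorithm or settings. Inhibitor doses were not used here. After 64 control probe sets were left out, 34945 of 45037 probe sets had 1 gene symbol in the platform annotation. Intensities were converted to log2(value + 21.7), the 25th percentile of all values. Probe sets were kept when their mean log2 value reached the median over probe sets. The brightest kept probe set stood for its gene, which left 11744 genes. With 1 array per group, no test was run and genes were counted by a 2-fold rule. All members are named. Other genes were named when at least 2-fold apart, up to 6 per list and comparison, or as the 3 closest in pattern, and genes named outside this rule (such as Mapk14, Dusp9, Ppm1a, Ppp2ca, Spry1, Spry2, Spry4, Cd14 and Lyz2) were chosen after their values were seen. The members and lists were chosen with earlier results of these data known. Promoter windows came from RefSeq (GRCm38.p6). Steps were run in Python 3.11.15 with pandas 2.3.3 and NumPy 2.4.6 and tested on simulated data. The alternatives changed the pseudocount, the filter, the scaling and the choice of probe set.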

Additional observations from a re-analysis of the deposited data

How the results depend on the processing

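Of 60 member differences (10 members in 6 comparisons), 2 crossed the 2-fold rule under any alternative: Dusp4 with TGF-beta2 over untreated and Dusp5 with oxozeaenol over untreated, both with the pseudocount at the median. With that pseudocount 1 member was higher with TGF-beta2 in place of 2. The filter at the 75th percentile left out Dusp2, Dusp4, Dusp5, Dusp8 and Dusp14. Among the 5 members it kept, 0 were higher with TGF-beta2 over untreated, 0 were lower with SB431542 over TGF-beta2 alone, and 2 (Dusp1 and Dusp6) were lower with oxozeaenol over TGF-beta2 alone, over SB431542 and over untreated. The other 90 of 96 member counts stayed within 1.5 times the main count, and many of these were 0 in both settings. The setting without a filter could not change a member count, since all 10 members had passed with the same brightest probe set. Averaging probe sets could change only Dusp7 and Dusp8. A setting with no pseudocount was added after the data had been seen and changed no member count. Counts over all genes depended on the filter: with oxozeaenol over TGF-beta2 alone, 149 to 512 genes were lower (255 in the main setting) and 64 to 587 higher (214), and with TGF-beta2 over untreated 30 to 351 were higher (79) and 17 to 278 lower (43). With SB431542 over TGF-beta2 alone 62 to 405 were lower (139) and 22 to 463 higher (72). Precision is limited by there being 1 array per group, and dim signals such as Dusp2 and Dusp4 with oxozeaenol depend most on the pseudocount. No paired analysis was possible because each group holds 1 array.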
